A study of Mus musculus with 18 samples.

Results

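The messenger RNA of 10 genes of the major histocompatibility complex (MHC) class I pathway was followed across 18 libraries of mouse thyroid cells. The genes were taken by symbol from the deposited table, which lists symbols in upper case (B2M, TAP1, PSMB8), and all 10 of the 10 symbols were found among 23626 entries. They are H2-K1, H2-D1, B2m, Tap1, Tap2, Tapbp, Psmb8, Psmb9, Psmb10 and Nlrc5. Every library was labelled as YFP-sorted thyrocytes of naive animals at 20 weeks. YFP is a yellow fluorescent protein used to sort the cells. Tumours with BrafV600E, an activating mutation of the kinase Braf, gave 4 libraries (Braf tumours). Tumours with BrafV600E and the Tert promoter change Tert-123C>T gave 7 libraries (Tert-123 tumours), and tumours with BrafV600E and the transgene K5-Tert, in which a keratin 5 promoter drives the telomerase gene Tert, gave 4 (K5-Tert tumours). The other 3 libraries were pooled samples without BrafV600E, 1 each from K5-Tert, Tert-123C>T and wildtype mice, and the number of mice in a pool is not in the labels. All groups share the YFP sort, and the gene that directs BrafV600E and YFP to thyrocytes is not named in the labels. The series asks what more telomerase does in Braf-driven thyroid tumours.

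MHC class I molecules show peptides from inside the cell to CD8 T cells on nearly every nucleated cell. The proteasome cuts proteins into peptides, the transporter made of Tap1 and Tap2 moves them into the endoplasmic reticulum, tapasin (Tapbp) holds the empty heavy chain beside the transporter, and the loaded heavy chain travels to the surface with beta-2 microglobulin (B2m). Interferon gamma raises most of these genes, partly through the factor Irf1 and partly through the class I transactivator Nlrc5, and swaps the catalytic proteasome subunits Psmb6, Psmb7 and Psmb5 for Psmb9, Psmb10 and Psmb8.

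The stretches upstream of the heavy chain, light chain and transporter genes are shown as the regulatory sequence next to the genes that make up the class I molecule and its peptide supply. RefSeq promoters (build GRCm38.p6) were at hand for 8 of the 10 genes. Each is printed 5′ to 3′ in the direction of the gene, and capitals mark matches, on either strand, to GAAANNGAAA (interferon response element type), GGGANNNNCC (kappaB type), TGACG (cyclic AMP response element type) and ATTGG (inverted CCAAT type). The H2-K1 stretch lies at chr17:34000348-34000467 on the minus strand and ends at the base before the start of transcription. The H2-D1 stretch lies at chr17:35262914-35263033 on the plus strand and runs from 180 to 61 bases before its start. The B2m stretch lies at chr2:122147537-122147686 on the plus strand and ends at the base before its start. Tap1 and Psmb9 lie head to head, and the 225 bases between their starts, chr17:34187331-34187555, are given in the direction of Tap1.
H2-K1: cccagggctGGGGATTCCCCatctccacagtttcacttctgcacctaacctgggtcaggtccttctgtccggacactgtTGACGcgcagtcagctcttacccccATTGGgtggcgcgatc
H2-D1: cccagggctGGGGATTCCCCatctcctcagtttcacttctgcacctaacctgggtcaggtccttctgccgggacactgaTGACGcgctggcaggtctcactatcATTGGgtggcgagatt
B2m: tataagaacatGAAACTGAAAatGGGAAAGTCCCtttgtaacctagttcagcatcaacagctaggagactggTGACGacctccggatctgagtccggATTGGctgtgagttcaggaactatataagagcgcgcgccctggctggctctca
Tap1 and Psmb9: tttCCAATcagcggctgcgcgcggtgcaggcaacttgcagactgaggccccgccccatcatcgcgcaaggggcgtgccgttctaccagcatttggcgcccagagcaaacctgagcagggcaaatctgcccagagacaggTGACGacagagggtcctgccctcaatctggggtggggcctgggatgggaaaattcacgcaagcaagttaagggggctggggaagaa

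The H2-K1 and H2-D1 stretches carried the same base at 107 of 120 positions (89.2%). In H2-K1, H2-D1 and B2m the TGACG was followed by 20 bases and then by ATTGG. That spacing, read off these promoters before it was counted, was found in the 250 bases upstream of 26 of 27025 genes (0.0962%), and the heavy chain gene H2-M3 was also among them. Alone, TGACG was in 19.8% of genes and in 5 of the 8 members with a promoter, and ATTGG was in 37.5% of genes and 6 of the 8. The same TGACG and CCAAT lie upstream of both Tap1 and Psmb9, and the H2-K1 and H2-D1 stretches are near copies. These counts of members are thus not counts of independent promoters. GGGANNNNCC was in 19.7% of genes and 3 of the 8 members, and GAAANNGAAA in 3.46% of genes and in B2m alone of the 8. The kappaB type motif was matched on both strands at overlapping bases in each of the 3 genes, and matches to different motifs did not overlap. A match is a run of letters and was not tested as a binding site. The lack of a match to these fixed letters does not show that an element of that type is absent.

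The values are used as TPM, a transcript's share of its library corrected for transcript length, so that levels can be compared between genes. That unit is not stated for the table, and levels of different genes can be compared only if it holds. How deeply the libraries were sequenced is unknown. Rpph1, the RNA of ribonuclease P, took 43.7% to 68.8% of each library, and 10958 to 15045 genes reached 1 TPM. K5-Tert tumours 2, 3 and 4 stood apart from the other tumours in the nuclear RNA Malat1 (1191, 1908 and 1050 TPM against at least 5072 TPM in the other 12), and the median of all genes in them lay 0.86, 0.20 and 0.68 below the median tumour on the log2(TPM + 1) scale. By that median only tumours 2 and 4 stood apart, since Tert-123 tumour 1 lay at -0.24. The K5-Tert tumours also carry higher sample numbers than all other tumours, so that a cohort or run, if there was one, and the transgene cannot be told apart. In all 15 tumours the thyrocyte gene Tg was at 81.9 to 511 TPM, against 25676 to 31240 TPM in the pools. Summed over 14 thyrocyte markers the tumours held 1532 to 3511 TPM and the pools 27848 to 35154 TPM, most of it Tg in the pools. Other thyrocyte markers did not follow Tg: Nkx2-1 lay above every pool in 11 of 15 tumours and Krt18 in 10 of 15, and Krt8 and Epcam overlapped the pools. In such bulk libraries fewer cells of a type and less RNA per cell cannot be told apart.

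H2-K1, a classical heavy chain, and B2m, its invariant partner, were the most abundant members. H2-K1 stood between rank 54 and rank 231 among all entries in the 15 tumours, and B2m between 53 and 209. H2-K1 was at 458, 287, 545 and 249 TPM in the 4 Braf tumours. In the 7 Tert-123 tumours it had a lowest value of 234, a median of 414 and a highest of 1040 TPM. The K5-Tert tumours held 546, 250, 449 and 197 TPM. All 3 groups overlapped, and Tert-123 tumour 7 was far above the other 14 tumours. The K5-Tert, Tert-123C>T and wildtype pools were at 568, 495 and 414 TPM, inside the range of the tumours.

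B2m had values of 403, 286, 589 and 328 TPM in the Braf tumours. It ran from 269 over a median of 370 to 1049 TPM in the Tert-123 tumours. The K5-Tert tumours had 567, 344, 646 and 218 TPM of B2m, and the pools 446, 801 and 382 TPM. K5-Tert tumour 4 was the lowest tumour and Tert-123 tumour 7 the highest for both genes.

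H2-D1, the other classical heavy chain measured, was several-fold lower than H2-K1 in every library. It was at 63.0, 41.8, 77.2 and 43.6 TPM in the Braf tumours and at 71.3, 40.8, 72.8 and 37.1 TPM in the K5-Tert tumours. The Tert-123 tumours ran from 35.5 over a median of 65.9 to 163 TPM, and the pools held 53.6, 54.6 and 43.7 TPM. Heavy chain genes are close copies of each other, and the counting could have split their reads, so the balance between H2-K1 and H2-D1 is uncertain. The ratio of H2-K1 and H2-D1 together to B2m was 1.10 ± 0.168 (SD, n = 4) in Braf, 1.10 ± 0.237 (n = 7) in Tert-123 and 0.954 ± 0.147 (n = 4) in K5-Tert tumours.

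**Figure D1:**
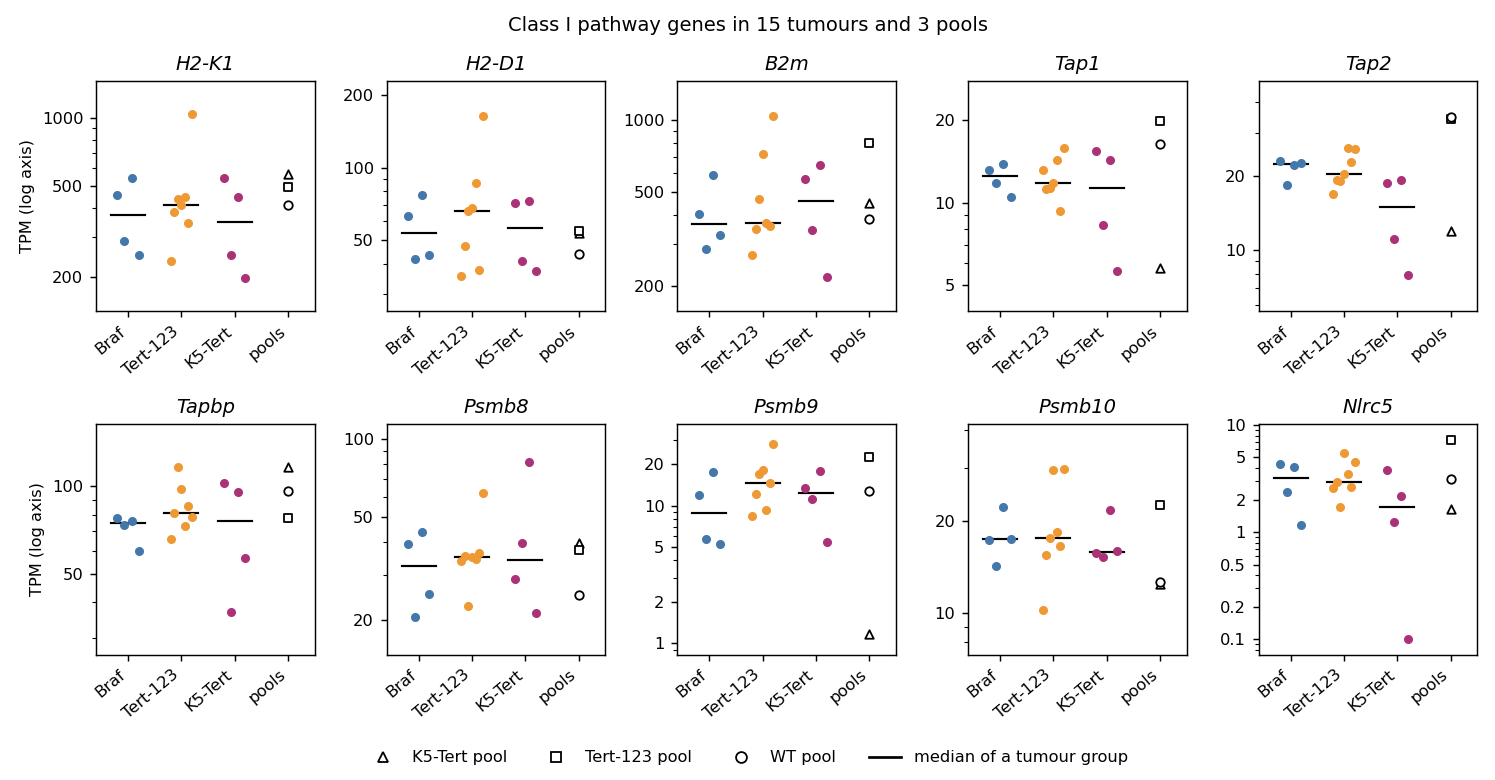
TPM (log axis) of each of the 10 class I genes in every library; dots are tumours, bars are group medians and open symbols are the 3 pools. The tumour groups overlapped for all 10 genes, Tert-123 tumour 7 was highest for H2-K1 (1040 TPM), and K5-Tert tumours 2 and 4 were lowest for Tap2 (11.1 and 7.89 TPM).

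Of the peptide loading genes, Tap2 was the member with the clearest difference between tumour groups. Tap2, a subunit of the peptide transporter, was at 23, 18.3, 22.2 and 22.5 TPM in the Braf tumours. The Tert-123 tumours ran from 16.9 over a median of 20.3 to 25.9 TPM. The K5-Tert tumours held 18.7, 11.1, 19.2 and 7.89 TPM. K5-Tert tumours 2 and 4 lay below every other tumour, while tumours 1 and 3 lay inside the range of the other groups. The K5-Tert pool was also low (12 TPM), and the Tert-123C>T and wildtype pools were above all tumours (33.9 and 34.7 TPM).

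Tap1, the partner subunit, was lower than Tap2 in all 18 libraries. It was at 13.2, 11.8, 13.8 and 10.5 TPM in Braf tumours, at 9.35 to 15.8 TPM (median 11.8) in Tert-123 tumours, and at 15.5, 8.32, 14.3 and 5.61 TPM in K5-Tert tumours. K5-Tert tumours 2 and 4 were again the lowest tumours, and the K5-Tert pool was close to them (5.76 TPM, against 19.9 in the Tert-123C>T and 16.4 in the wildtype pool). Tapbp, the bridge between heavy chain and transporter, was at 78.0, 73.6, 76.3 and 59.9 TPM in the Braf tumours. It was at 65.9 to 117 TPM (median 81.3) in Tert-123 tumours, at 103, 36.9, 95.6 and 56.7 TPM in K5-Tert tumours, and at 117, 77.6 and 96.8 TPM in the pools.

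The 3 inducible proteasome subunits were expressed in every library. Psmb8 was at 39.3, 20.7, 43.8 and 25.4 TPM in the Braf tumours and ran from 22.7 over a median of 35.0 to 61.8 TPM in the Tert-123 tumours. In the K5-Tert tumours Psmb8 was at 28.9, 39.8, 81.5 and 21.3 TPM, so that this group held both the highest tumour and one of the lowest. Psmb9 was at 12, 5.72, 17.6 and 5.24 TPM in the Braf tumours, at 8.46 to 27.9 TPM (median 14.6) in the Tert-123 tumours and at 13.5, 11.2, 17.9 and 5.47 TPM in the K5-Tert tumours. In the pools Psmb9 was at 1.16 (K5-Tert), 22.5 (Tert-123C>T) and 12.8 TPM (wildtype), and the K5-Tert pool lay below every tumour. Psmb10 was at 17.4, 14.3, 22.2 and 17.5 TPM, at 10.2 to 29.8 TPM (median 17.6) and at 15.7, 15.2, 21.8 and 16 TPM in the Braf, Tert-123 and K5-Tert tumours.

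A ratio of an inducible to a constitutive subunit within a library does not depend on a factor by which the whole library was scaled. Psmb8 stood at 1.14 ± 0.193 (SD, n = 4) times its constitutive counterpart Psmb5 in Braf tumours, at 1.51 ± 0.571 (n = 7) in Tert-123 tumours and at 1.35 ± 0.535 (n = 4) in K5-Tert tumours. Psmb9 was well below Psmb6, with ratios of 0.123 ± 0.0634, 0.160 ± 0.0444 and 0.130 ± 0.0495 in the same order. Psmb10 over Psmb7 was 0.280 ± 0.0531, 0.278 ± 0.0539 and 0.261 ± 0.0336. The wildtype pool had the highest Psmb8 to Psmb5 ratio (3.08) and the K5-Tert pool the lowest Psmb9 to Psmb6 and Psmb10 to Psmb7 ratios (0.0120 and 0.119). In the wildtype pool Psmb5 was at 8.13 TPM, its lowest value in any library. Psmb8 was at 25 TPM there, against 39.6 in the K5-Tert and 37.5 TPM in the Tert-123C>T pool. The ratios were tested as log2 values after 1 TPM was added to both terms, which leaves some dependence on the scaling for low genes such as Psmb9. Over the 4 ratios, heavy chains over B2m included, and 3 pairs of tumour groups, 0 of 12 two-sided exact permutation tests passed (smallest unadjusted p = 0.2121, Benjamini-Hochberg adjusted p from 0.897 to 0.9606).

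**Figure D2:**
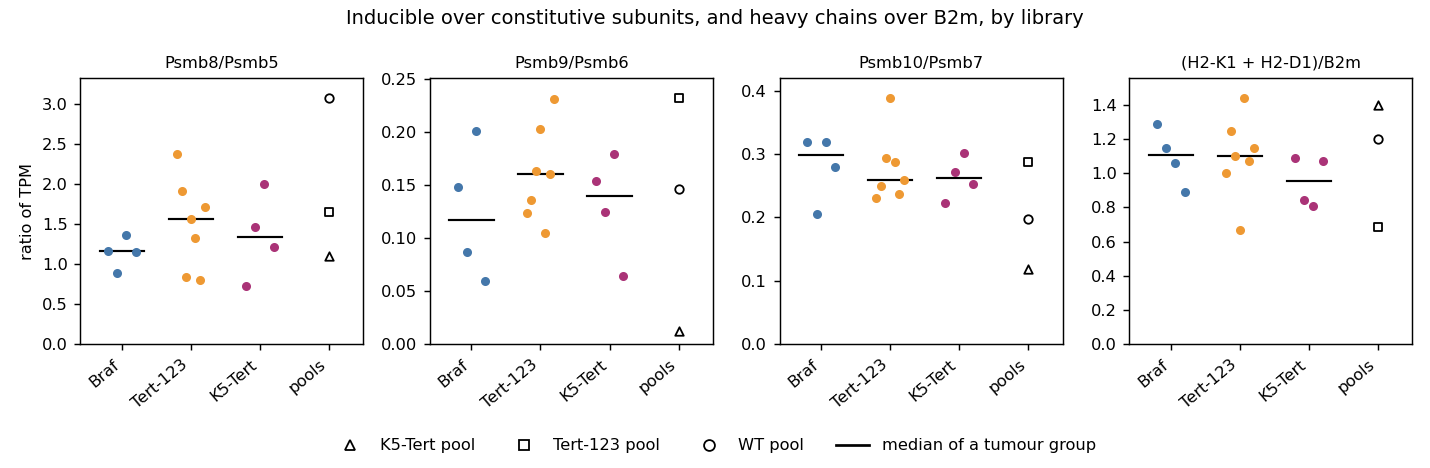
Ratio of TPM within each library for the 3 pairs of inducible and constitutive proteasome subunits and for the summed heavy chains over B2m; dots are tumours, bars are group medians and open symbols are pools. The tumour groups overlapped in all 4 panels, and the wildtype pool had the highest Psmb8/Psmb5 ratio (3.08), with the lowest Psmb5 of any library (8.13 TPM).

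Nlrc5, the transactivator of the class I genes, was the lowest member in all 15 tumours. It was at 4.34, 2.37, 4.05 and 1.18 TPM in the Braf tumours, at 1.74 to 5.55 TPM (median 2.98) in the Tert-123 tumours and at 3.84, 1.25, 2.19 and 0.101 TPM in the K5-Tert tumours. The pools held 1.66 (K5-Tert), 7.30 (Tert-123C>T) and 3.18 TPM (wildtype). Nlrc5 missed the filter of 10 TPM in at least 4 libraries and was tested by itself. On the log2(TPM + 1) scale, which understates the change of a low gene, K5-Tert tumours were 0.59 below Braf tumours (-0.59, two-sided exact permutation p = 0.2571) and 0.76 below Tert-123 tumours (-0.76, exact p = 0.08182), and Tert-123 tumours were 0.17 above Braf tumours (exact p = 0.6). The K5-Tert against Tert-123 difference was -0.86 (exact p = 0.04762) without Tert-123 tumour 3 and -1.08 (exact p = 0.01667) without K5-Tert tumour 1. Without K5-Tert tumour 4, the tumour at 0.101 TPM, it shrank to -0.37 (exact p = 0.275), the smallest difference with any single tumour left out. The Tert-123 against Braf difference turned to -0.10 without Braf tumour 4.

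By their medians over the 15 tumours the members ranked from H2-K1 (414 TPM) and B2m (370) over Tapbp (78.0), H2-D1 (63.0), Psmb8 (35.0), Tap2 (19.2), Psmb10 (17.4), Psmb9 (12.2) and Tap1 (11.8) to Nlrc5 (2.63). H2-K1 and B2m overlapped in every tumour group, as did Tapbp with H2-D1, Tap2 with Psmb10, and Psmb9 with Tap1. From the lowest to the highest tumour the level varied 5.29-fold for H2-K1, 4.81-fold for B2m, 5.33-fold for Psmb9 and 2.81-fold for Tap1.

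With K5-Tert added to BrafV600E, 0 of the 9 members tested passed in either direction. The test was limma on log2(TPM + 1) with Benjamini-Hochberg adjustment over 7498 genes and a threshold of 0.05. Of all genes, 0.587% were called higher and 21.9% lower in K5-Tert than in Braf tumours. The members' differences ran from -0.64 ± 0.25 (SE) for Tap2 (adjusted p = 0.06903) to 0.28 ± 0.35 for Psmb8 (adjusted p = 0.5556), with a median of -0.05 against -0.48 over all genes tested. For H2-K1 the difference was -0.14 with a 95% interval of -0.95 to 0.67. Beside this comparison, Cd14 of the 10 myeloid markers tested and Acta2 and Tagln of 3 pericyte and smooth muscle markers were called higher in K5-Tert tumours, and 0 of 6 class II markers. Of 10 thyrocyte markers tested 2 were called lower. Against Tert-123 tumours the counts of these lists were the same. Their part in the members' values was not tested.

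With Tert-123C>T added to BrafV600E, 0 of 9 members passed, as did 0% of all genes higher and 0% lower. At an unadjusted p under 0.05 there were 0 members and 50 of 7498 genes. The members' differences ran from -0.02 ± 0.22 for Tap2 to 0.61 ± 0.35 for Psmb9, each with an adjusted p of 0.9997, and their median was 0.21 against -0.01 over all genes. H2-K1 differed by 0.23 with a 95% interval of -0.49 to 0.94. This comparison and the one before share the Braf tumours.

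Between the tumours with different Tert alleles, Tap2 was lower in K5-Tert than in Tert-123 tumours by 0.62 on the log2 scale (-0.62 ± 0.22, 95% interval -1.09 to -0.16, adjusted p = 0.04108). It was the 1 called member of 9, with 0 called higher, where 29.5% of all genes were called lower and 0.760% higher. Without K5-Tert tumours 2 and 4 the Tap2 difference was -0.15 (adjusted p = 0.7651), and the call was also lost without either of them, without any 1 of the 4 Braf tumours, or without Tert-123 tumour 3, 5, 6 or 7 (adjusted p up to 0.21). It was lost as well when each library's trend against transcript length was removed (-0.31) or TMM-type factors were used (-0.12). The other members ran up to 0.07 ± 0.31 for Psmb8, and H2-K1 differed by -0.37 with a 95% interval of -1.08 to 0.35. With library weights H2-K1 was at -0.85 (adjusted p = 0.04246) and 4 members were called lower. The median of the members was -0.25 and that of all genes -0.48.

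**Figure D3:**
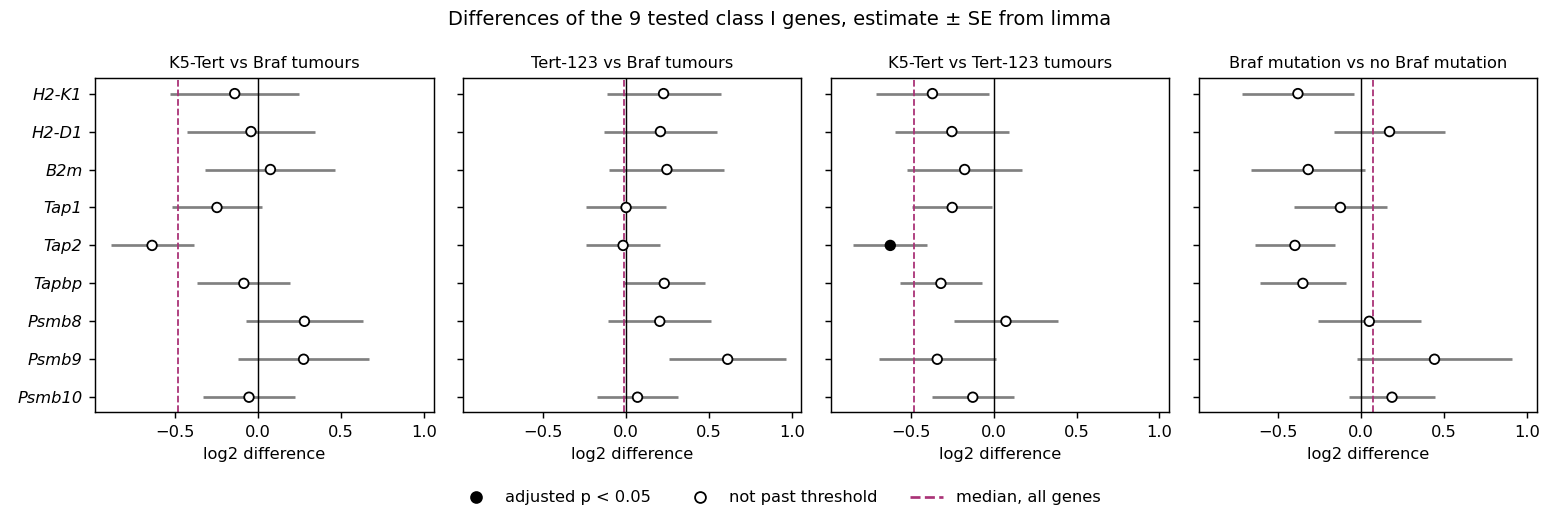
Log2 difference (x axis) of the 9 tested class I genes in 4 comparisons, with 1 SE from limma; the filled point passed an adjusted p of 0.05 and the dashed line is the median of all genes tested. Tap2 between K5-Tert and Tert-123 tumours (-0.62) was the only filled point, in a comparison in which the median of all genes was -0.48.

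The sign of a K5-Tert difference depended on the scaling for most members. As deposited, 3 of 9 members were above 0 against Braf tumours, and 8, 6, 7 and 8 were with TMM-type factors, quantile normalization, rescaling without Rpph1 and removal of the length trend. These scalings moved the median of all genes from -0.48 to 0.02, 0.00, -0.38 and 0.00, and that of the members from -0.05 to 0.46, 0.25, 0.11 and 0.33. Over all genes the calls were 44 higher and 1641 lower as deposited, 490 and 652 with TMM-type factors, and 195 and 470 with quantile normalization. They were 135 and 2062 after rescaling without Rpph1, which let more genes pass the filter (10506), and 367 and 573 with the length trend removed. Against Tert-123 tumours they were 57 and 2210, 568 and 637, 233 and 454, 193 and 1632, and 397 and 611 in the same order. Under none of these 4 scalings was a member called in the K5-Tert comparisons.

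The heavy chains and B2m varied together from tumour to tumour. After each library's median over tested genes was subtracted, the log2 level of H2-K1 over the 15 tumours was most like that of H2-D1 among 7497 other genes (Pearson r = 0.896). B2m was the third (r = 0.828) and Psmb9 the seventh (r = 0.781), whereas Psmb8 (r = 0.537), Psmb10 (0.464), Tap1 (0.443), Tap2 (0.275) and Tapbp (0.112) were further down, Tap2 at rank 1188 and Tapbp at rank 2649. Without Tert-123 tumour 7 the correlations with H2-K1 were 0.823 for H2-D1, 0.756 for B2m, 0.760 for Psmb9 and 0.438 for Tapbp. Reads shared between the near-identical heavy chain genes could add to the first of them.

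Outside the members, the 5 genes most like the mean of the 9 tested members over the 15 tumours were Hist1h2bj, a histone gene (r = 0.885), the proteasome subunit Psmb2 (0.869), the copper chaperone Atox1 (0.822), Qdpr, which regenerates tetrahydrobiopterin (0.816), and Bcl3, a partner of NF-kB (0.813). The points share libraries and a scaling, and the correlations are descriptions. In Tert-123 tumour 7, 9 of 9 tested members lay above the median tumour, by a median of 0.80 where all genes lay 0.28 above it. That tumour also had the smallest share of Rpph1 (43.7%). In K5-Tert tumour 4, 9 of 9 lay below the median tumour, where the median of all genes was -0.68.

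**Figure D4:**
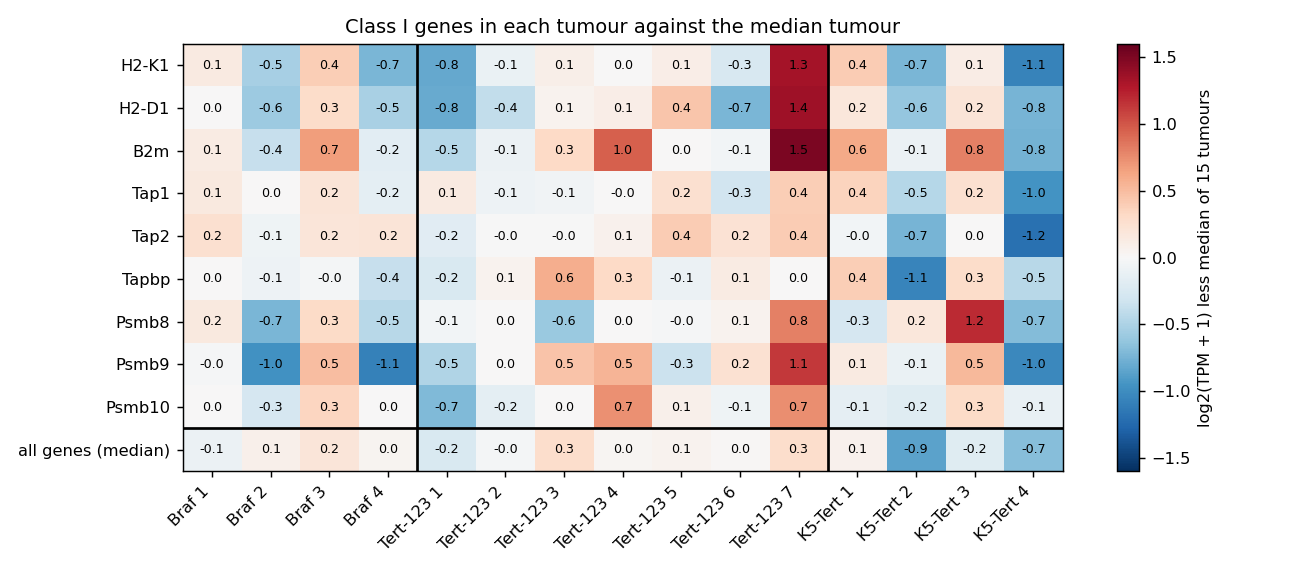
Each cell is log2(TPM + 1) of a tested class I gene in a tumour less its median over the 15 tumours; the bottom row is the median over all genes tested. The column of Tert-123 tumour 7 is highest for H2-K1 (1.33), H2-D1 (1.36) and B2m (1.5), and K5-Tert tumours 2 and 4 are low for Tap2 (-0.74 and -1.19) and for all genes (-0.86 and -0.68).

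All libraries were labelled as sorted thyrocytes, a sort meant to leave other cells out, and still held markers of leukocytes, which carry much class I. Which cells that RNA came from was not tested. The 12 myeloid markers summed to 701 to 1137 TPM in Braf, 253 to 5783 in Tert-123 and 582 to 4332 TPM in K5-Tert tumours, and all 12 reached 10 TPM in a tumour. The 6 class II genes summed to 1354 to 1836, 800 to 4886 and 1232 to 8950 TPM. Tert-123 tumour 4 and K5-Tert tumour 3 held the highest sums (5783 and 4332 TPM of myeloid markers), and there H2-K1 was at 414 and 449 TPM, B2m at 721 and 646, and Psmb8 at 35.0 and 81.5 TPM. Of 13 leukocyte and T, NK and B cell markers, 3 reached 10 TPM in a tumour, and the T cell gene Cd3e was at 0 to 3.56 TPM in the tumours but at 42.0 TPM in the Tert-123C>T pool. That pool also had the highest Ifng (5.40 TPM, against at most 1.72 in the other 17 libraries), Nlrc5 (7.30 TPM), Tap1 (19.9 TPM) and 967 TPM of endothelial markers. The part of such cells in the members' values was not tested.

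BrafV600E tumours were then compared with the pools lacking the mutation, with the Tert allele as a covariate over all 18 libraries. Of the 9 members tested 0 were called, where 15.4% of 7825 genes were called higher and 10% lower. A gene at 10 TPM or more in the 3 pools alone could not be tested, because the filter needs 4 libraries. A gene that high in tumours alone could be. This tilts the balance of risers and fallers towards risers, over all genes and in the lists below. Differences ran from -0.40 ± 0.24 for Tap2 (adjusted p = 0.2447) to 0.44 ± 0.46 for Psmb9 (adjusted p = 0.5355), and their median was -0.13 against 0.07 over all genes. H2-K1 was at -0.38 with a 95% interval of -1.08 to 0.32. Psmb9 turned to -0.54 without the K5-Tert pool and to -0.51 with library weights. Tap2 was called lower, at -0.75 (adjusted p = 0.008565), with the length trend removed and at -0.65 (adjusted p = 0.002363) with library weights, each time beside 1 other member, Tapbp. Each genotype without the mutation is 1 pool, so that 3 libraries carry this comparison. No tumour library was labelled as pooled, so that pooling and the mutation cannot be told apart. The fit takes the effect of BrafV600E as the same with each Tert allele. The markers of other cells moved with it: 7 of 10 myeloid, 4 of 6 class II and 3 of 5 fibroblast markers tested were called higher in the tumours, and 5 of 5 endothelial and 5 of 10 thyrocyte markers lower. Their part was not tested.

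Some genes that control or serve class I were called with BrafV600E. Irf1, the interferon-induced activator of class I genes, was at 11.3 to 21.5 TPM in the 15 tumours and at 49.8, 81.6 and 80.3 TPM in the K5-Tert, Tert-123C>T and wildtype pools. All 15 tumours lay below all 3 pools, and the difference was -2.06 ± 0.21 (limma adjusted p = 1.917e-07). How many of all genes separate tumours and pools in this way was not counted. Among the 3 tumour groups Irf1 was level, with means of 16.2 ± 3.03, 15.3 ± 2.71 and 16.6 ± 3.34 TPM (SD, n = 4, 7 and 4), and it passed in no comparison between them. Socs3, a feedback inhibitor of cytokine receptors, was at 30.4 to 124 TPM in the tumours and 363, 157 and 198 TPM in the pools (-1.93 ± 0.25, adjusted p = 5.27e-06). In the list of 30 interferon signalling genes and class I regulators, 22 were tested, 1 rose and 5 fell (Irf1, Socs3, Rela, Jak2 and Ifnar2), with a median of -0.11. Of all genes in this comparison 15.4% were called higher and 10% lower, with a median of 0.07. The list thus held a smaller share of risers and a larger share of fallers than all genes. Whether it differs from them as a set was not tested. Among its untested genes, Socs1 lay below every pool in 14 of 15 tumours and Ciita above every pool in 12 of 15. The riser was Irf8, a factor of myeloid cells (1.82 ± 0.29, adjusted p = 6.272e-05), at 10.4 to 40.8 TPM in tumours and 1.95 to 15.4 TPM in pools. Rela, a subunit of NF-kB, was at 18 to 47.6 and 62.4 to 83.7 TPM (-0.87 ± 0.24, adjusted p = 0.009602).

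Several chaperones that fold the heavy chain were lower in the tumours, to an extent that rested partly on the K5-Tert pool. Of 10 genes of peptide loading and trimming, 4 fell and 1 rose, with a median of -0.47, where 10% of all genes were called lower and 15.4% higher. Without the K5-Tert pool Calr was at -0.65, Canx at -0.55 and Pdia3 at -0.43, and none of the 3 was called. Hspa5, the main chaperone of the endoplasmic reticulum, was at 149 to 391 TPM in the tumours and at 1495, 761 and 615 TPM in the pools (-1.81 ± 0.26, adjusted p = 1.794e-05). Calr, which holds the heavy chain in the loading complex, was at 265 to 994 TPM against 1721, 811 and 1203 TPM (-1.08 ± 0.27, adjusted p = 0.004442). Canx, which binds the new heavy chain, was at 63.8 to 211 TPM against 310, 187 and 218 TPM (-0.88 ± 0.26, adjusted p = 0.01551). Pdia3, the oxidoreductase of the loading complex, was at 138 to 324 TPM against 520, 287 and 409 TPM (-0.72 ± 0.24, adjusted p = 0.02881). The riser, Psme1, a subunit of the interferon-inducible proteasome activator, was at 207 to 458 TPM in the tumours and at 147, 192 and 178 TPM in the pools (0.64 ± 0.20, adjusted p = 0.02148). Its partner Psme2, the tapasin-like editor Tapbpl and the trimming peptidase Erap1 did not pass, at 41.6 to 89.5, 7.73 to 26.9 and 3.67 to 10.4 TPM in the tumours and 60 to 95.3, 13.4 to 23 and 9.46 to 11.7 TPM in the pools.

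**Figure D5:**
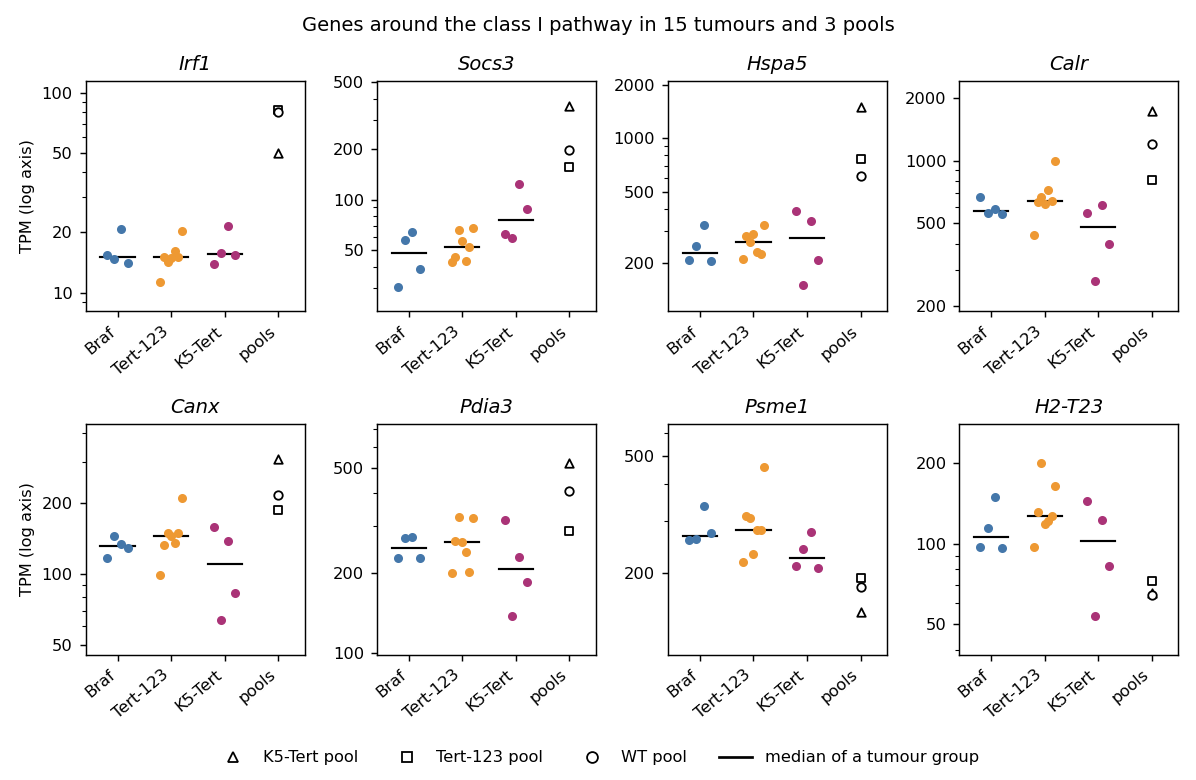
TPM (log axis) of 8 genes around the class I pathway; dots are tumours, bars are group medians and open symbols are pools. Irf1, Socs3 and Hspa5 were below all 3 pools in all 15 tumours, and Psme1 was above all 3 pools in all 15. The share of all genes that separate in this way was not counted.

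Among 20 other class I heavy chains, 5 passed the filter, of which 3 rose and 1 fell with a median of 0.74. The filter could not admit a gene high in the pools alone, so this balance is partly set by it. Among the untested, H2-K2 lay below every pool in 13 of 15 tumours and Cd1d1 above every pool in 12 of 15. The share of all genes, for this list and the proteasome list below, was 15.4% called higher and 10% lower. H2-T23, which presents leader peptides to NK cells, was at 53.7 to 200 TPM in the tumours and at 64.1 to 72.5 TPM in the pools (0.74 ± 0.26, adjusted p = 0.03669), and 14 of 15 tumours lay above every pool. Fcgrt, the neonatal Fc receptor, was at 14.1 to 78.9 against 6.55 to 20.0 TPM (1.15 ± 0.38, adjusted p = 0.02788). H2-M3, which presents formylated peptides, was at 1.86 to 14.6 TPM in the tumours, while the pools held 10.5, 2.10 and, in the K5-Tert pool, a listed 0 (adjusted p = 0.02881). H2-Q2 was at 2.27 to 15.3 against 15.9 to 18.9 TPM (-1.02 ± 0.36, adjusted p = 0.04027). The 14 constitutive proteasome genes gave 1 riser, Psmb3, at 65.7 to 108 TPM in tumours and 55.3 to 63.8 TPM in pools (0.55 ± 0.19, adjusted p = 0.03571), and 0 that fell. Psmb5, Psmb6 and Psmb7 did not pass, at 14.2 to 45, 66.2 to 121 and 44.3 to 115 TPM in the tumours and 8.13 to 36.2, 87.8 to 96.9 and 64.2 to 104 TPM in the pools.

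The calls of Irf1, Socs3, Hspa5 and Irf8 held whichever library was left out. Without the K5-Tert pool the calls of Calr, Canx, Pdia3, Rela, H2-M3 (0.67), Fcgrt, Psme1, H2-Q2 and Psmb3 were lost, without the wildtype pool those of Pdia3, H2-M3, Fcgrt, Psme1, H2-T23, H2-Q2 and Psmb3, and without the Tert-123C>T pool those of Psme1, H2-T23, H2-Q2 and Psmb3. H2-T23 was also lost without Braf tumour 2 or 3 or K5-Tert tumour 3, H2-Q2 without Braf tumour 1, 2 or 4, and Psmb3 without Braf tumour 2, 3 or 4, Tert-123 tumour 5 or K5-Tert tumour 3. The adjusted p of H2-T23, H2-Q2 and Psmb3 then reached up to 0.1541, 0.1425 and 0.1337 over all libraries left out. Other settings also ended calls: removal of the length trend those of Psme1 (0.38), Psmb3 (0.31), H2-M3 (1.36) and Fcgrt (0.96), quantile normalization those of H2-M3 (0.50) and Fcgrt (1.02), and TMM-type factors that of Psmb3 (0.53). Without a filter on low values H2-T23, H2-M3, Fcgrt and H2-Q2 were lost, with only the groups compared Pdia3, H2-M3, Fcgrt and H2-Q2, with a pseudocount of 5 H2-M3 (0.74), without K5-Tert tumours 2 and 4 H2-Q2 (-0.89), and without K5-Tert tumours 2, 3 and 4 H2-M3 (1.29) and H2-Q2 (-0.90).

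In the comparisons between tumour groups the same lists held few calls outside the interferon list. With K5-Tert against Tert-123 tumours, 8 of 21 tested interferon and regulator genes fell and 0 rose, with a median of -0.52 beside -0.48 for all genes, of which 29.5% were called lower. With TMM-type factors 3 of the 21 were called higher and 1 lower, and without K5-Tert tumours 2 and 4 there were 0 calls. Those with the smallest p were Irf3, a factor of the antiviral response (-1.08 ± 0.25, adjusted p = 0.006783), the receptor kinase Tyk2 (-0.88 ± 0.24, adjusted p = 0.01493), Irf2, a factor that binds interferon response elements (-0.97 ± 0.29, adjusted p = 0.01954), and Nfya, a subunit of the factor that binds CCAAT (-0.77 ± 0.25, adjusted p = 0.02961). Irf3 was at 20.6, 13.1, 14.4 and 7.61 TPM in the K5-Tert tumours and at 20.3 to 41.2 TPM in the Tert-123 tumours. Without K5-Tert tumours 2 and 4 the calls of all 4 genes were lost, with differences of -0.72, -0.36, -0.29 and -0.19 in the order named. Tyk2 and Irf2 were lost without K5-Tert tumour 2 or 4 alone, Nfya also without Tert-123 tumour 3, 5 or 7, and all but Irf3 with TMM-type factors and with quantile normalization (-0.32, -0.49 and -0.23 for Tyk2, Irf2 and Nfya). Tyk2 (-0.25) and Nfya (-0.35) were lost with the length trend removed, and Nfya also without a filter, with Xist as covariate and with only the groups compared. Against Braf tumours, 1 of 21 fell, Irf3 (-1.33 ± 0.28, adjusted p = 0.006548), and 1 rose, Socs3 (0.79 ± 0.28, adjusted p = 0.04792). Irf3 was lost without K5-Tert tumours 2 and 4 (-0.97, adjusted p = 0.1318), and Socs3 held only where the tumour left out was Tert-123 tumour 4, Tert-123 tumour 7 or K5-Tert tumour 1 (0.58 to 0.95 over all 15 left out in turn). Socs3 was also lost without a filter, with the filter at 50 TPM, with Xist as covariate, with only the groups compared, and without K5-Tert tumours 2 and 4. Of the peptide loading, other heavy chain and constitutive proteasome genes, 0 passed in any of the 3 comparisons between tumour groups.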

How the data were processed

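RNA from 9000 to 20000 sorted YFP-positive cells was made into low-input messenger RNA libraries with 14 cycles of PCR and read as 100 bp pairs, per the series' design text. The authors deposited 1 table of 23652 entries by 18 libraries. The deposited values were taken as TPM. Each library sums to 1000000, a total that does not by itself show a correction for transcript length. Over 1752 genes found in few libraries, the smallest non-zero value fell with transcript length (Spearman rho = -0.435). Unit, aligner, annotation and build were stated nowhere in the sources at hand. Counting error can thus not be given. After 26 entries with date-like names were dropped (at most 0.0455% of a library), 23626 remained, and 23499 matched a mouse symbol. No 2 columns were identical. Groups came from the genotype labels; replicates were numbered in accession order and pair nothing. Nothing says that the tumours of a group came from separate animals, so p-values measure the spread between libraries.

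Genes at 10 TPM or more in at least 4 of the libraries in a fit were tested as log2(TPM + 1) with limma 3.58.1 (R 4.3.3, mean-variance trend), two-sided, with Benjamini-Hochberg adjustment over all genes and a threshold of 0.05. The 15 tumours were fitted together (residual degrees of freedom 12), and BrafV600E was tested over all 18 libraries with the Tert allele as covariate (14). Whether the filter counts the 15 tumours or all 18 libraries was settled after both had been run; the other choice is among the alternatives. Ratios and Nlrc5 were compared by exact permutation tests. The tests were checked on simulated data. The members and all lists were chosen with earlier results of these data known. Genes named beside the members are a set of partners (Irf1, Psmb5, Psmb6, Psmb7, Tapbpl, Erap1, Psme1, Psme2, Calr, Canx and Pdia3; another is not reported here), up to 4 called genes of each list by smallest p, and the 5 most like the members' mean; genes like H2-K1, the marker genes given by level, the names of further called genes and the motif spacing were chosen after values were seen. Alternatives were other pseudocounts (0.5 and 5), filters (none, 50 TPM), scalings, library weights, an Xist covariate, fits restricted to the compared groups, and libraries left out.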

Additional observations from a re-analysis of the deposited data

Results flagged for a closer look

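In 30 sets of values (10 members in 3 tumour groups), 2 values lay far from the rest of their group, where chance sets apart about 1 in 20. Tap2 was at 18.3 TPM in Braf tumour 2, below the other 3 Braf tumours, with a gap of 0.833 of the group's range on the log2(TPM + 1) scale. Psmb10 was at 21.8 TPM in K5-Tert tumour 3, above the other 3 K5-Tert tumours, with a gap of 0.857 of the range.

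Whether the effects of the Tert alleles on Braf tumours differ was tested by the K5-Tert against Tert-123 contrast. It called 5 of the genes given by value lower, where 29.5% of all genes were called lower and 0.760% higher. Tap2 was the 1 called member of 9 tested. The log2 differences by limma were -0.62 for Tap2 (adjusted p = 0.04108), -1.08 for Irf3 (adjusted p = 0.006783), -0.88 for Tyk2 (adjusted p = 0.01493), -0.97 for Irf2 (adjusted p = 0.01954) and -0.77 for Nfya (adjusted p = 0.02961). Under TMM-type factors Irf3 alone of the 5 was still called. In the same contrast the median of all genes was -0.48, and K5-Tert tumours 2 and 4, the lowest of the K5-Tert tumours for all 5 genes, also had the lowest medians over all genes.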

How the results depend on the processing

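The count of called members stayed at 0 higher in all 4 comparisons under every alternative run, and at 0 lower between Tert-123 and Braf tumours. Between K5-Tert and Tert-123 tumours the count lower was 1 and became 0 with no filter, the 50 TPM filter (Tap2 is then not tested), TMM-type factors, quantile normalization, rescaling without Rpph1, the length trend removed, Xist as covariate, only the groups compared, and without K5-Tert tumours 2 and 4 or 2, 3 and 4, and 4 with library weights; leaving out single libraries gave 0 to 1, with Tap2 at -0.79 to -0.39 and lost in 10 of 15. Between K5-Tert and Braf tumours the count lower was 2 with library weights and 0 to 1 without single libraries. For the Braf mutation it was 2 with the length trend removed and 2 with library weights. With the filter over all 18 libraries, an alternative added after the data were seen like the one without tumours 2, 3 and 4, the counts of called members were those reported.

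Signs reversed as follows. H2-K1, K5-Tert against Braf: 0.39 (TMM-type), 0.03 (without Rpph1), 0.27 (length), 0.44 and 0.58 (without tumours 2 and 4, and 2, 3 and 4), single libraries -0.38 to 0.11. H2-K1, K5-Tert against Tert-123: 0.17, 0.05 (length), 0.21 and 0.35 without those tumours; with library weights it fell further, to -0.85 (adjusted p = 0.04246). Psmb8 with library weights and without tumours 2, 3 and 4: -0.07 and -0.09 against Braf (single libraries -0.08 to 0.55), -0.39 and -0.30 against Tert-123 (-0.29 to 0.34). Tap2, Tert-123 against Braf: 0.09 with library weights, single libraries -0.09 to 0.04. For the Braf mutation, Psmb9 was -0.17 (quantile) and -0.51 (library weights), single libraries -0.54 to 1.02. Nlrc5 without single libraries was -0.10 to 0.34 for Tert-123 against Braf tumours, -0.91 to -0.20 for K5-Tert against Braf, and -1.08 to -0.37 for K5-Tert against Tert-123 (exact permutation p = 0.01667 to 0.275). The cause of these changes was not tested. Ratio tests stayed at 0 of 12 throughout. No paired analysis was possible because the labels carry no replicate numbers. The unknown depth limits the low members, Nlrc5 above all.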
